A study of Homo sapiens with 11 samples.

Results

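The 9 genes described here encode the major histocompatibility complex (MHC) class I molecules and the machinery that loads them with peptide. They are the heavy chains HLA-B, HLA-C, HLA-E and HLA-F, the light chain B2M, the peptide transporter subunits TAP1 and TAP2, the loading factor TAPBP and the trimming enzyme ERAP1. They were chosen by name for their place in the pathway, with earlier results of these data known. Their names were matched to the gene column of each of 2 abundance tables. All 9 were among the 14458 rows of the PHF19 knockdown table, and 2 of the 9, B2M and ERAP1, were among the 11062 rows of the PHF19 overexpression table analysed here.

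The data are RNA-seq of 11 libraries from the established myeloma cell line ARP1, of human origin, whose recorded phenotype is IgA kappa. The groups were PHF19 shRNA (n = 3) and its scramble control (n = 3), and PHF19 overexpression (n = 2) and its empty vector control (n = 3). PHF19 belongs to the accessory subunits of PRC2 (Polycomb repressive complex 2), the complex that methylates lysine 27 of histone H3. Overexpression cells received the PHF19 open reading frame, and empty vector cells the same PCDH plasmid without it, through lentivirus made in HEK293T cells, a human embryonic kidney line. Cells overexpressing PHF19 were sorted before RNA was taken, and no such statement was found for the empty vector cells. The sources used here do not say how the shRNA was delivered or whether 1 hairpin was used for all 3 libraries. Groups of the knockdown libraries were taken from sample titles, because their genotype entry repeats the wording used for overexpression. The last letter of the sample descriptions is F in overexpression and S in empty vector libraries, and what it marks cannot be told apart from these groups. All libraries come from a single cell line, and no label says that replicates were separate cultures, so p-values measure only the spread between these libraries, which may be technical.

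MHC class I molecules show peptides made inside a cell to CD8 T cells and natural killer cells. Proteasomes cut proteins into peptides, the TAP1-TAP2 transporter moves the peptides into the endoplasmic reticulum, tapasin (TAPBP) holds an empty class I molecule beside the transporter, and the aminopeptidase ERAP1 trims peptides to a length that fits. The heavy chain needs B2M and a bound peptide to be stable at the cell surface. Class I pathway genes are induced by interferons and by the coactivator NLRC5, and PRC2 has been described as a repressor of them in several tumour types.

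The promoters of the heavy chain, light chain and transporter genes are known for a compact block of regulatory elements shortly before the transcription start, and 5 of them are printed. HLA-B, HLA-C and HLA-F were the heavy chains with the largest fold changes in the knockdown arm, where HLA-C was not called. B2M and TAP1 had smaller fold changes there and were not called either. Each printed promoter is the 190 bases upstream of the annotated start in RefSeq, build GRCh38.p14, written 5′ to 3′ on the strand of the gene. Capitals mark matches, on either strand, to 2 interferon-type motifs, GAANNGAAA and a longer form with GAAA on both sides of NN, to CCAAT, to the cyclic AMP response-like motif TGACGC and to the NF-kB consensus. The intervals are chr6:31357180-31357369 on the minus strand for HLA-B, chr6:31272093-31272282 on the minus strand for HLA-C, chr6:29723244-29723433 on the plus strand for HLA-F, chr15:44711327-44711516 on the plus strand for B2M and chr6:32853705-32853894 on the minus strand for TAP1.
HLA-B: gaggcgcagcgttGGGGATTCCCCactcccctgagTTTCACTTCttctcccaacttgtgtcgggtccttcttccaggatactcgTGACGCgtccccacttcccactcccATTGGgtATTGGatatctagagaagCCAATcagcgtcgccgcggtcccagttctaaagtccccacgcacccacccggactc
HLA-C: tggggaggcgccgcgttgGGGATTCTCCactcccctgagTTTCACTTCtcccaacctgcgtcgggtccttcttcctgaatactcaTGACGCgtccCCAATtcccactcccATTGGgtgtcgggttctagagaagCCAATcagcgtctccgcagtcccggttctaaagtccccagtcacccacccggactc
HLA-F: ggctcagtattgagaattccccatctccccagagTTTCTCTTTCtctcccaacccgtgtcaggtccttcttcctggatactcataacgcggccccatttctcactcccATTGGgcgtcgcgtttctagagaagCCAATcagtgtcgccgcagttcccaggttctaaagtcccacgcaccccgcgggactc
B2M: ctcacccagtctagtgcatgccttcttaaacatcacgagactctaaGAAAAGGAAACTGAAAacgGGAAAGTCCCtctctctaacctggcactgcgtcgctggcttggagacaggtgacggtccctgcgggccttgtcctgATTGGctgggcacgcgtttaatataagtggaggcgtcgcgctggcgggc
TAP1: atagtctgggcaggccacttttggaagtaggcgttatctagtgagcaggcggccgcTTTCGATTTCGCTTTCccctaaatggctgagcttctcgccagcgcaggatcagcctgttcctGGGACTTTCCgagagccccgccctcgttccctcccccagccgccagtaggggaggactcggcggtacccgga
These are reference bases and not the alleles carried by ARP1.

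Each of the 3 heavy chain promoters had an interferon-type motif upstream of CCAAT matches on both strands. HLA-B and HLA-C also held TGACGC and the NF-kB consensus, which were not found in this window of HLA-F. HLA-C had a further CCAAT match at -192, upstream of its interferon-type motif, which starts before the printed bases and is not marked. In the 250 bases before the start, the longer interferon-type motif occurred for 5 of the 8 genes with a promoter entry, against 3.02% of 35116 RefSeq promoters, and GAANNGAAA for 4 of the 8, against 6.56%. Matches of the interferon-type motifs lay at position -155 in HLA-B, -151 in HLA-C and -156 in HLA-F, counted from the first base of the match with the last upstream base as -1. B2M had overlapping matches of the longer motif at -144 and -138, and TAP1 at -134 and -128. CCAAT was found for 6 of 8 (32% of all promoters), TGACGC for 3 of 8 (7.67%) and the NF-kB consensus for 6 of 8 (9.96%). The 8 genes do not include HLA-E, and TAP1 and ERAP1 have more than 1 listed start, with a gene counted if any start held the motif. The percentages count each promoter entry instead, so the units differ. ERAP1 held GAANNGAAA at only 1 of its listed starts. A match describes letters only and says nothing about binding in these cells.

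Abundances are of FPKM type, scaled for length and depth, with a header that names no unit, and read depth is unknown. Listed values summed to 501348 to 524966 in shRNA and 470294 to 526068 in scramble libraries, and to 498485 and 502349 in overexpression and 425155 to 426112 in empty vector libraries. In the knockdown table shRNA replicate 1 stood apart: principal component 1 placed it at -35.2, the other shRNA libraries at -8.46 and -10.6 and the scramble libraries at 15.3 to 21.2. PHF19 itself was 75.2, 103 and 108 in shRNA libraries, against 113, 152 and 123 in scramble libraries, a log2 fold change of -0.44 that did not pass the test (limma adjusted p = 0.147) and passed with the replicate block, a term for the shared replicate number (adjusted p = 0.0445). PHF19 was 227 and 213 in overexpression libraries, against 111, 119 and 115.1 in empty vector libraries (log2 fold change 0.93, SE 0.094, limma adjusted p = 0.0438). That call was lost when either overexpression library or empty vector replicate 3 or 4 was left out (adjusted p 0.149 to 0.427), with only genes that have no 0 (adjusted p = 0.156), under quantile normalisation (0.165) or median-of-ratios scaling (0.0549), under limma without trend and robust variances (0.0781), with the filter at 5 (0.0650) and with a pseudocount of 0.1 (0.0532). Plasma cell markers were present. The sum of 10 markers was 713.5 to 1223 in shRNA and 1254 to 1381 in scramble libraries, and all 9 markers tested had a log2 fold change below 0, with 0 called by limma and 1 at an unadjusted p under 0.05. T and NK markers summed to 0 to 1.10 in shRNA and 0.20 to 1.39 in scramble libraries with 2 of 6 genes listed, myeloid markers to 0.87 to 1.43 and 1.51 to 2.71 with 4 of 5 listed, and B cell markers to 1.67 to 2.81 and 1.76 to 2.66 with 2 of 4 listed. The part of these markers in the results on class I genes was not tested, and in bulk RNA fewer cells of a type and less RNA per cell cannot be told apart.

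The knockdown comparison asked which class I genes differ when PHF19 is targeted. HLA-B and HLA-F rose in PHF19 shRNA cells, 1.59-fold and 1.54-fold on the log2(value + 1) scale on which all fold changes are given. HLA-C and ERAP1 lay higher in every shRNA library than in any scramble library and were called with the replicate block and not without it. HLA-E, B2M and TAP1 had smaller positive fold changes, TAP2 was near 0 and TAPBP, at very low abundance, had a negative one. None of the last 5 passed the test.

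**Figure D1:**
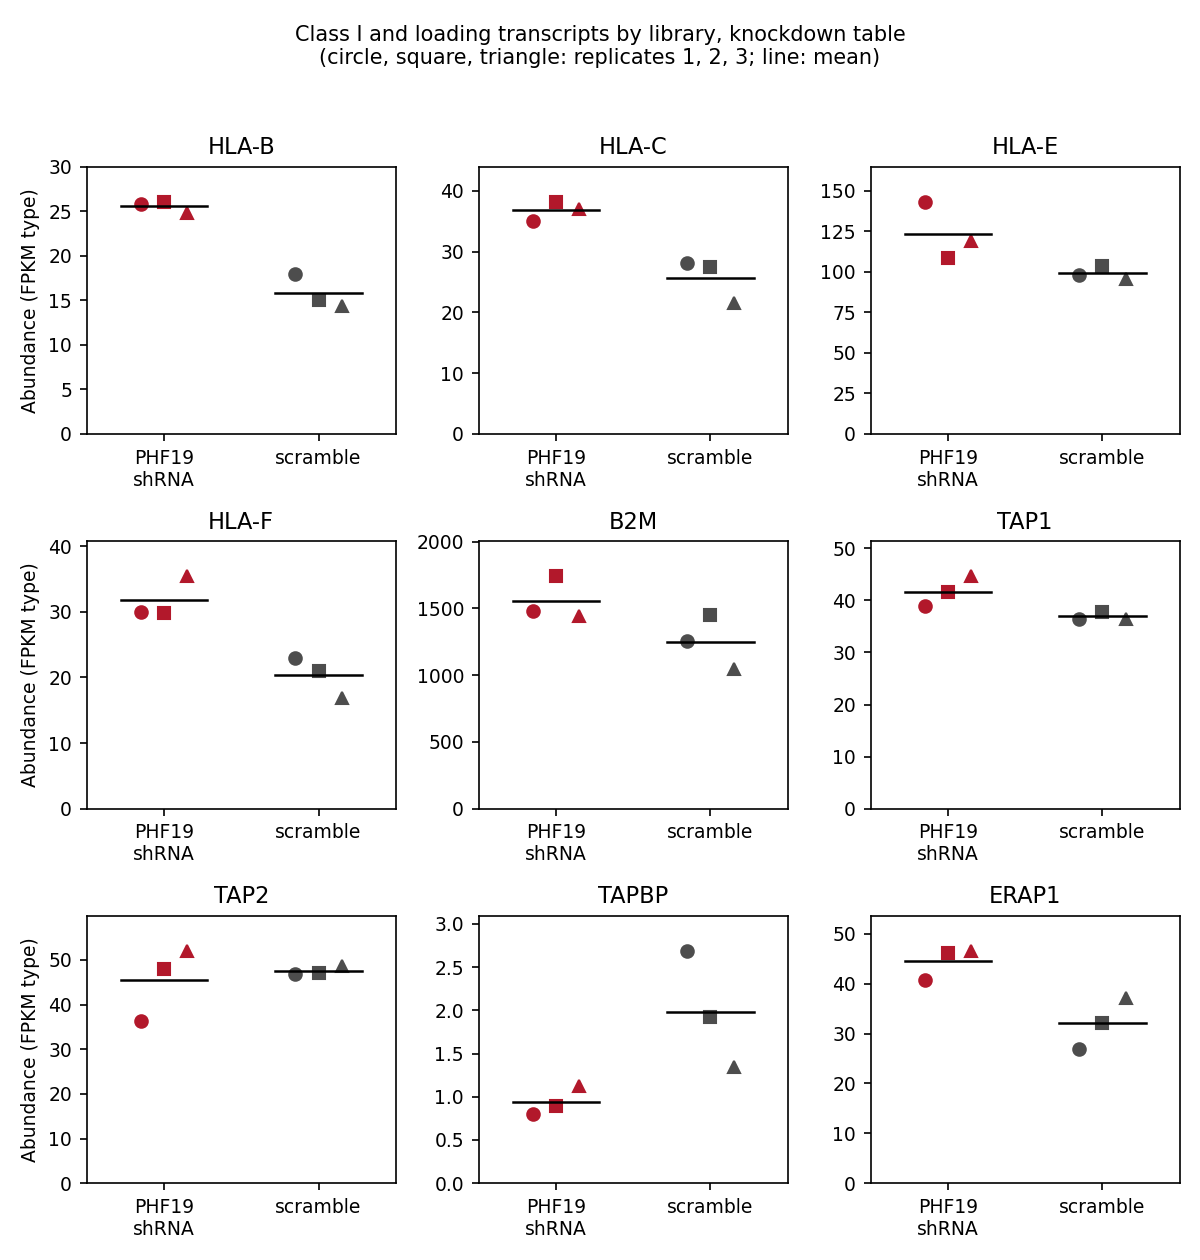
Abundance (FPKM-type value, linear axis from 0) of the 9 class I and loading genes, 1 panel a gene, in the 3 shRNA libraries (left) and 3 scramble libraries (right). Points are libraries, shaped by replicate number, and horizontal lines are group means. HLA-B lies at 24.8 to 26.1 in shRNA and 14.35 to 18.01 in scramble libraries, while the B2M ranges overlap.

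HLA-B, a classical heavy chain that presents peptides to CD8 T cells, was 25.9, 26.1 and 24.8 in shRNA libraries, against 18.01, 15.02 and 14.35 in scramble libraries. Every shRNA value was above every scramble value, and the shRNA libraries lay closer together (25.6 ± 0.671, against 15.8 ± 1.95 in scramble, SD, n = 3 each). The log2 fold change was 0.67 (SE 0.13, 95% interval 0.38 to 0.95, limma adjusted p = 0.0222). HLA-B stayed past the threshold in 10 of 14 alternatives, and was not past it without shRNA replicate 2 (adjusted p = 0.0558) or 3 (0.0601) or without scramble replicate 2 (0.102) or 3 (0.0671).

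HLA-C, the other classical heavy chain here and a main ligand of killer-cell immunoglobulin-like receptors, was 35.1, 38.3 and 37.0 in shRNA libraries, against 28.2, 27.4 and 21.6 in scramble libraries. The groups did not overlap, with scramble replicate 3 lowest. Its log2 fold change of 0.51 (SE 0.13) had a limma adjusted p = 0.0541, which became 0.0281 with the replicate block and 0.0472 without shRNA replicate 1. HLA-B stood at 0.736, 0.682 and 0.672 of HLA-C in shRNA libraries, against 0.640, 0.548 and 0.663 in scramble libraries, so that the ratio between the pair was higher in each shRNA library.

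HLA-F, a non-classical heavy chain that can reach the surface without peptide and is bound by receptors of natural killer cells, was 30.0, 29.9 and 35.5 in shRNA libraries, against 23.0, 21.0 and 16.9 in scramble libraries. Again no shRNA value fell within the scramble range. The log2 fold change was 0.63 (SE 0.14, 95% interval 0.30 to 0.95, limma adjusted p = 0.0365, with the replicate block 0.0265). The call was less stable than that of HLA-B by count: it held in 5 of 14 alternatives, and the other 9 gave adjusted p-values of 0.0509 to 0.120, among them limma without trend, both other scalings, no filter and the fits without shRNA replicate 2 or 3 and without any 1 of the 3 scramble replicates.

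HLA-E, which presents signal peptides of other class I heavy chains to the NKG2 receptors of natural killer cells, was the most abundant of the 4 heavy chains. It was 143, 109 and 119 in shRNA libraries, against 98.1, 103 and 95.3 in scramble libraries. The shRNA libraries were all higher, shRNA replicate 1 by most, and the lowest shRNA value lay close to the highest scramble value. The log2 fold change of 0.31 (SE 0.13) did not pass the test (limma adjusted p = 0.187, with the replicate block 0.120). HLA genes share long stretches of sequence with one another and with pseudogenes and vary between people, and the sources used here do not say how shared reads were assigned, so the split of abundance among them is uncertain.

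B2M, the light chain shared by all class I molecules, was 1478, 1741 and 1444 in shRNA libraries, against 1255, 1452 and 1045 in scramble libraries. These ranges overlapped by a narrow margin, since scramble replicate 2 lay just above shRNA replicate 3. Its log2 fold change was 0.32 (SE 0.16, 95% interval -0.04 to 0.69, limma adjusted p = 0.258, with the replicate block 0.1005). In each of the 3 equal-numbered pairs the shRNA library was the higher.

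Summed over HLA-B, HLA-C, HLA-E and HLA-F, heavy chain abundance was 234, 203 and 216 in shRNA libraries, against 167, 167 and 148 in scramble libraries. As a share of B2M this came to 15.8%, 11.6% and 14.96% in shRNA libraries, against 13.3%, 11.5% and 14.2% in scramble libraries, with overlapping ranges. HLA-E made up 61.2%, 53.5% and 55.0% of the heavy chain sum in shRNA libraries, against 58.6%, 62.0% and 64.3% in scramble libraries. HLA-B and HLA-C together made up 26.0%, 31.7% and 28.6% in shRNA libraries, against 27.6%, 25.4% and 24.3% in scramble libraries. In shRNA replicates 2 and 3 the classical heavy chains took a larger share than in any scramble library, and in shRNA replicate 1 they did not. These ratios do not change when a library is rescaled, and no test was made on them.

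**Figure D2:**
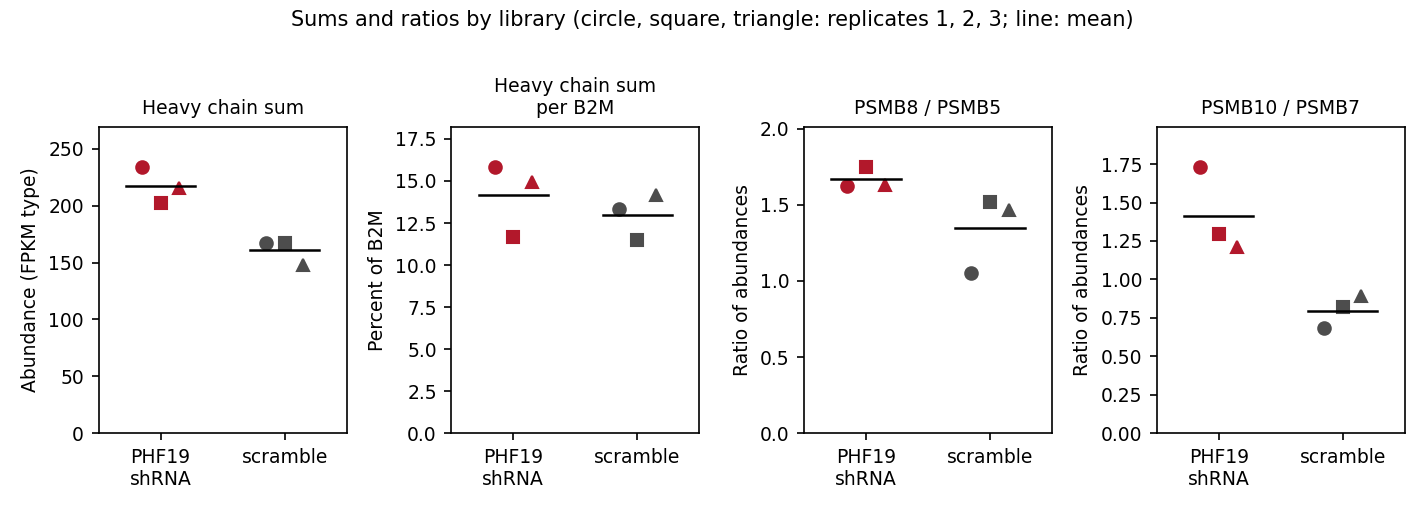
Heavy chain sum (FPKM-type value) and 3 quantities formed within each library of the knockdown table (percent of B2M, PSMB8/PSMB5 and PSMB10/PSMB7, y axes), with shRNA libraries left of scramble libraries, points for libraries and lines for group means. The heavy chain sum as a percent of B2M overlaps between groups, whereas PSMB10/PSMB7 lies at 1.21 to 1.73 in shRNA and 0.683 to 0.890 in scramble libraries.

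TAP1, which with TAP2 forms the pump that brings peptides into the endoplasmic reticulum, was 38.9, 41.6 and 44.7 in shRNA libraries, against 36.5, 37.9 and 36.5 in scramble libraries. All shRNA values were above the scramble range, and its log2 fold change, 0.17 (SE 0.11), did not pass the test (limma adjusted p = 0.395). TAP2 was 36.4, 48.1 and 52.1 in shRNA libraries, against 46.8, 47.0 and 48.6 in scramble libraries. Its shRNA libraries spread widely around a narrow scramble range, shRNA replicate 1 lying below it, and the log2 fold change was -0.08 (SE 0.14, limma adjusted p = 0.784) and 0.07 without shRNA replicate 1. TAP1 stood at 1.07, 0.866 and 0.858 of TAP2 in shRNA libraries, against 0.781, 0.806 and 0.751 in scramble libraries. The transporter genes together came to 32.1%, 44.2% and 44.8% of the heavy chain sum in shRNA libraries, against 49.8%, 50.9% and 57.4% in scramble libraries, so the transporter share was lower in every shRNA library.

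TAPBP, whose product tapasin bridges class I molecules and the transporter, was listed at 0.8, 0.89 and 1.13 in shRNA libraries, against 2.69, 1.92 and 1.35 in scramble libraries. It was below all other class I genes of this group in every library, at the 9.60th percentile of genes tested in scramble cells, and reached the minimum value of 1 in 4 libraries, 3 of them scramble. Because it passed the filter mainly through the group where it is higher, its log2 fold change, -0.60 (SE 0.19; limma adjusted p = 0.0962 and, with the replicate block, 0.0768), is given as a description. It was not tested with the filter at 5.

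ERAP1, the aminopeptidase that trims peptides in the endoplasmic reticulum, was 40.7, 46.1 and 46.6 in shRNA libraries, against 27.0, 32.1 and 37.2 in scramble libraries. The groups did not overlap, and the closest values were shRNA replicate 1 and scramble replicate 3. The log2 fold change was 0.47 (SE 0.14), with a limma adjusted p = 0.0816 and with the replicate block 0.0265.

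Counted together, 2 of the 9 genes were called higher and 0 lower by limma, where 4.24% of the 10900 genes tested were called higher and 1.28% lower (5.51% in either direction). With the replicate block 4 of 9 were called higher (HLA-B, HLA-C, HLA-F and ERAP1) and 0 lower, where 8.2% of all genes were called higher and 3.68% lower. Groups did not overlap for 6 of 9 in the higher direction, where 18.9% of genes tested did so, and for TAPBP in the lower direction, where 13% did so. At an unadjusted p under 0.05, 5 of 9 were higher (15.3% of all genes) and 1, TAPBP, was lower (8.74%). TAPBP passed the filter mainly through the scramble group, where it is higher, so both of its entries here are descriptions only. All 9 genes were chosen with earlier results of these data known, so the counts of this paragraph are descriptions and no test of the set. The median log2 fold change of the 9 was 0.32, against 0.03 over all genes tested, and 7 of 9 lay above 0, where 54.4% of all genes did. Over all genes, 462 were called higher and 139 lower, and 373 and 202 after quantile normalisation. The authors' deposited table gives p under 0.05 for 8 of the 9 from a test that is not stated, with TAP2 at 0.715 as the exception, and gives such a p for 61.2% of its rows.

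**Figure D3:**
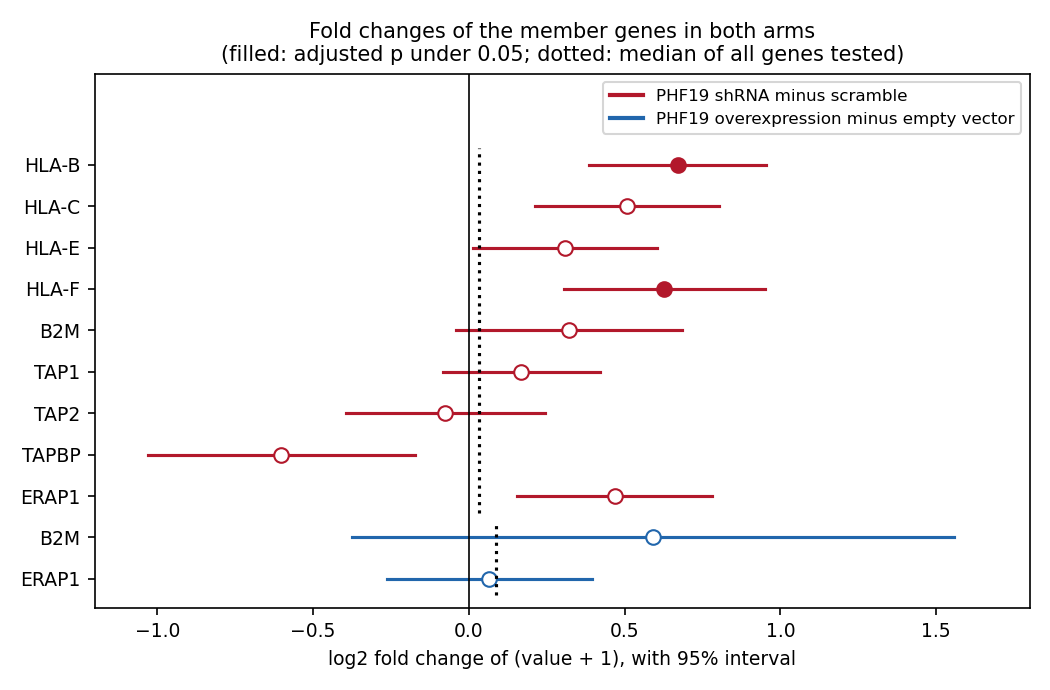
Log2 fold changes of (value + 1) with 95% limma intervals (x axis) for each class I and loading gene (rows), shRNA minus scramble above and overexpression minus empty vector below. Filled points have an adjusted p under 0.05, which are HLA-B at 0.67 and HLA-F at 0.63 in the knockdown arm, and the dotted lines are the medians of all genes tested, 0.03 and 0.09.

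Ordered by mean abundance per length, the genes in shRNA libraries ran B2M (1554), HLA-E (124), TAP2 (45.5), ERAP1 (44.5), TAP1 (41.7), HLA-C (36.8), HLA-F (31.8), HLA-B (25.6) and TAPBP (0.940). In scramble libraries they ran B2M (1251), HLA-E (98.9), TAP2 (47.5), TAP1 (37.0), ERAP1 (32.1), HLA-C (25.7), HLA-F (20.3), HLA-B (15.8) and TAPBP (1.99). The ranges of TAP2, ERAP1 and TAP1 overlapped their neighbours in shRNA libraries, as did those of HLA-C and HLA-F. From TAP1 down to HLA-B each range overlapped the next in scramble libraries. The order was the same in both groups except for ERAP1 and TAP1.

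The other genes of the pathway were taken from lists by role. Their counts stand beside the shares over all genes tested in the knockdown arm. Of those genes 54.4% lay above 0, and limma called 4.24% higher and 1.28% lower. At an unadjusted p under 0.05, 15.3% were higher and 8.74% lower. Among the loading chaperones 4 of 9 lay above 0 and 5 below, with 0 called by limma (1 higher and 2 lower at an unadjusted p under 0.05) and a median log2 fold change of -0.09. CALR, the lectin chaperone calreticulin of the peptide-loading complex, was 454 ± 22.7 in shRNA and 655 ± 69.3 in scramble libraries (SD, n = 3 each, log2 fold change -0.52, limma adjusted p = 0.0513, with the replicate block 0.0309). TAPBPL, a tapasin-related peptide editor, was 22.3 ± 3.74 in shRNA and 15.7 ± 1.51 in scramble libraries (log2 fold change 0.48, limma adjusted p = 0.0886, with the block 0.0378). The tapasin relative and the chaperone thus had fold changes of opposite sign.

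The immunoproteasome list holds genes whose products replace the standard catalytic subunits under interferon, and genes of proteasome activator subunits. Of its genes 4 of 5 lay above 0, with 0 called by limma and 0 at an unadjusted p under 0.05. PSMB10 was 188 ± 17.3 in shRNA and 153 ± 20.7 in scramble libraries (log2 fold change 0.30, limma adjusted p = 0.215) and PSMB8 was 145 ± 8.87 and 129 ± 16.2 (0.17, adjusted p = 0.464). The constitutive catalytic list also holds PSME3, which encodes a proteasome activator and no catalytic subunit. All 4 genes of this list lay below 0, with a median of -0.47 and 0 called by limma. At an unadjusted p under 0.05 were 3 of them, PSME3 included. Among them PSMB6 was 119 ± 5.39 in shRNA and 176 ± 27.9 in scramble libraries (log2 fold change -0.55, limma adjusted p = 0.0520, with the replicate block 0.0327). PSMB7 was 135 ± 16.6 in shRNA and 193 ± 25.9 in scramble libraries (-0.51, adjusted p = 0.0746, with the block 0.0367).

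Ratios of subunits were also formed within each library. PSMB8 stood at 1.63, 1.75 and 1.63 of PSMB5, the subunit it replaces, in shRNA libraries, against 1.05, 1.52 and 1.47 in scramble libraries. PSMB10 stood at 1.73, 1.30 and 1.21 of PSMB7 in shRNA libraries, against 0.683, 0.818 and 0.890 in scramble libraries. These ratios were both higher in every shRNA library than in any scramble library. PSMB9 stood at 0.151, 0.00896 and 0.00993 of PSMB6 in shRNA libraries, against 0.0694, 0.00283 and 0.00768 in scramble libraries, so its groups overlapped and replicate 1 was high in both. None of the 3 ratios was tested. Of the cytosolic peptidases, 2 of 6 lay above 0 and 4 below, with 0 called by limma and 0 at an unadjusted p under 0.05. The lowest adjusted p there belonged to BLMH (36.2 ± 4.05 in shRNA and 43.2 ± 3.72 in scramble libraries, log2 fold change -0.25, adjusted p = 0.261) and THOP1 (-0.16, adjusted p = 0.610).

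Of 12 transcription factors of class I genes, 7 lay above 0 and 5 below, with 0 called by limma, 1 at an unadjusted p under 0.05 and a median of 0.10. RFXAP, a subunit of the RFX complex, was 5.95 ± 0.479 in shRNA and 4.15 ± 0.285 in scramble libraries (log2 fold change 0.43, limma adjusted p = 0.104). NFKB1 was 26.6 ± 5.63 in shRNA and 32.9 ± 0.898 in scramble libraries (-0.32, adjusted p = 0.245). NLRC5, named after its values were seen because it is the class I coactivator, was 5.50 ± 1.22 in shRNA and 4.36 ± 1.02 in scramble libraries (adjusted p = 0.432).

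Of 13 interferon signalling genes, 9 lay above 0 and 4 below, with a median of 0.14, and 1 was called higher by limma. STAT2, a subunit of the transcription factor complex that type I interferon activates, was 19.0, 11.7 and 13.4 in shRNA libraries, against 6.68, 8.12 and 7.92 in scramble libraries. STAT2 rose by 0.85 on the log2 scale (SE 0.18; limma adjusted p = 0.0292 and, with the replicate block, 0.0210). The call ended under quantile normalisation (adjusted p = 0.0507), with no filter (0.0601), without shRNA replicate 3 (0.0601) and without scramble replicate 1 (0.113), 2 (0.102) or 3 (0.0762).

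Among 11 genes of endoplasmic reticulum disposal and export of class I, 8 lay above 0 and 3 below, and 1 was called higher by limma. TMEM129, a ubiquitin ligase known for the removal of class I heavy chains in the presence of a viral protein, was 32.0, 26.4 and 25.6 in shRNA libraries, against 13.1, 15.4 and 15.8 in scramble libraries. It rose by 0.88 on the log2 scale (SE 0.14; limma adjusted p = 0.0137), a call that ended without scramble replicate 1 (adjusted p = 0.0565) or 2 (0.0580). Its fold change was larger than that of any of the 9 class I and loading genes.

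Class I-like molecules had 5 genes tested of 9 listed, 3 above 0 and 2 below, with 0 called by limma and 1 at an unadjusted p under 0.05. MR1, which presents microbial metabolites, was 7.45 ± 1.19 in shRNA and 5.27 ± 0.628 in scramble libraries (log2 fold change 0.43, limma adjusted p = 0.138), and HFE, which regulates iron, was 2.36 ± 0.110 and 3.38 ± 0.904 (-0.36, adjusted p = 0.243). Of the class II genes 6 of 11 tested lay above 0, with 0 called by limma and 0 at an unadjusted p under 0.05. CTSS, the cathepsin that degrades the invariant chain, was 14.7 ± 0.302 in shRNA and 12.6 ± 1.37 in scramble libraries (0.20, adjusted p = 0.371), and HLA-DRB1 was 46.2, 46.2 and 44.9 in shRNA libraries, against 60.9, 30.0 and 26.7 in scramble libraries (0.31, adjusted p = 0.495). All 4 genes of the PRC2 list lay below 0, with 0 called by limma and 2 at an unadjusted p under 0.05. EED, the PRC2 subunit that reads the methyl mark, was 18.5 ± 3.85 in shRNA and 26.2 ± 0.924 in scramble libraries (-0.50, adjusted p = 0.0875, with the replicate block 0.0470).

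**Figure D4:**
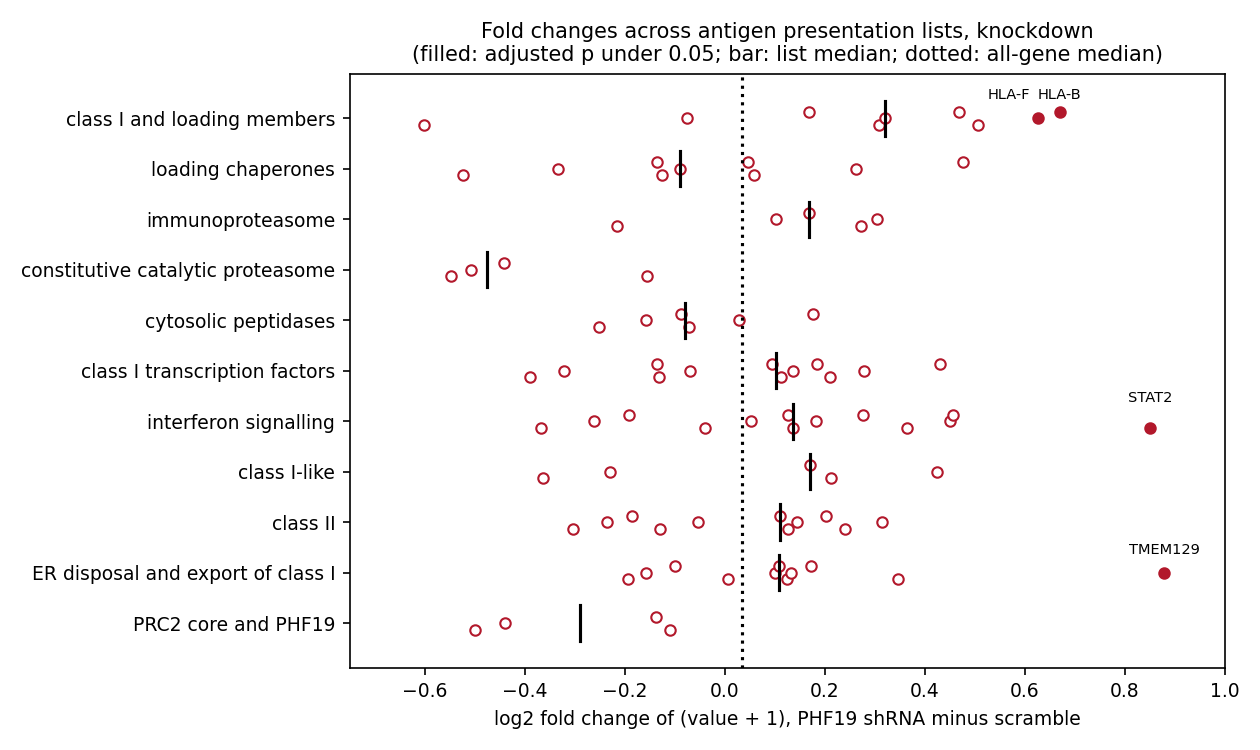
Log2 fold changes of (value + 1), shRNA minus scramble (x axis), for each gene tested of the class I genes and of 10 related lists (rows). Filled points have an adjusted p under 0.05, short bars are list medians and the dotted line is the median of all genes. HLA-F, HLA-B, STAT2 and TMEM129 are filled. The 4 genes of the constitutive catalytic proteasome list, which includes the activator gene PSME3, all lie below 0.

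The mean centred pattern of the 9 genes on the log2 scale was 0.07, 0.14 and 0.19 in shRNA libraries, against -0.07, -0.09 and -0.24 in scramble libraries. The genes outside the group whose pattern over the 6 knockdown libraries was most like it, among 6420 genes with an SD of at least 0.2, were DPH5 (r = 0.994), NUDT6 (0.989), CIB2 (0.988), OGFOD2 (0.985) and CT45A10 (0.984). The 6 points fall into the 2 treatment groups, so these correlations are given as descriptions. DPH5, an enzyme of diphthamide synthesis, was 9.28, 9.93 and 10.2 in shRNA libraries, against 8.03, 8.16 and 6.66 in scramble libraries.

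The overexpression comparison asked about the same genes when PHF19 is raised. Neither of the genes listed differed beyond the spread between replicates. B2M was 3165 and 5651 in overexpression libraries, against 2069, 3427 and 3121 in empty vector libraries. The overexpression libraries differed from each other by more than the empty vector libraries did, and the lower of them lay inside the empty vector range. The log2 fold change was 0.59 (SE 0.36, 95% interval -0.38 to 1.56, limma adjusted p = 0.577), with 0.13 to 1.01 over the alternatives.

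ERAP1 was 43.6 and 38.8 in overexpression libraries, against 37.0, 38.2 and 42.7 in empty vector libraries. The groups overlapped, and the log2 fold change, 0.07 (SE 0.12; limma adjusted p = 0.868), changed sign under 3 of 13 alternatives. Limma called 0 of the 2 genes, where 0.914% of the 10279 genes tested were called in either direction, and 0 had an unadjusted p under 0.05, where 7.88% were higher and 3.65% lower. Both fold changes lay above 0, as did 59.9% of all those tested, and the groups overlapped for both genes, while they did not overlap for 23.1% of all genes in the higher and 11.1% in the lower direction. The authors' deposited table gives p = 0.135 for B2M and 0.471 for ERAP1, and a p under 0.05 for 12.9% of its rows. The median of all genes was 0.09 in this arm and -0.04 after quantile normalisation, a shift of more than 0.1, so a fold change as small as that of ERAP1 lies within it.

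Counts of the lists in the overexpression arm stand beside the shares over all genes tested. Of those genes 59.9% lay above 0, and limma called 0.914% in either direction. At an unadjusted p under 0.05, 7.88% were higher and 3.65% lower. Of the interferon signalling genes tested, 10 of 11 lay above 0, with 0 called by limma and 1 at an unadjusted p under 0.05. IFNGR2, a subunit of the interferon gamma receptor, was 5.67 ± 0.184 in overexpression (n = 2) and 3.42 ± 0.775 in empty vector libraries (n = 3, SD, log2 fold change 0.61, limma adjusted p = 0.398). Loading chaperones lay above 0 for 6 of 9, with 0 called and 2 at an unadjusted p under 0.05, led by PRKCSH (210 ± 16.1 in overexpression and 139 ± 22.6 in empty vector libraries, adjusted p = 0.375) and GANAB (190 ± 9.37 and 158 ± 6.66, adjusted p = 0.427), subunits of the glucosidase that trims glycans on new glycoproteins. Among the transcription factors 6 of 11 lay above 0, with 0 called and 1 at an unadjusted p under 0.05, and RELA was 57.8 ± 1.25 in overexpression and 39.4 ± 2.87 in empty vector libraries (0.54, adjusted p = 0.273), while RFX5 was 62.8 ± 0.284 and 47.4 ± 7.80 (0.41, adjusted p = 0.461). PSME1, a proteasome activator subunit and the only immunoproteasome gene tested, was 230 ± 2.25 in overexpression and 183 ± 6.59 in empty vector libraries (0.33, adjusted p = 0.344). PSME3, another proteasome activator, was listed at 74.6 and 74.0 in overexpression libraries and at 0 in all 3 empty vector libraries, so no fold is given. It passed the filter only through the overexpression libraries, so its call by limma is given as a description. The peptidase LNPEP was 7.11 ± 0.955 in overexpression and 10.6 ± 0.762 in empty vector libraries (-0.52, adjusted p = 0.352). CIITA, the class II coactivator, was 14.97 ± 0.147 in overexpression and 18.3 ± 1.99 in empty vector libraries (-0.27, adjusted p = 0.523). In the remaining lists, 3 of 4 class I-like genes, 1 of 3 class II genes and 6 of 9 disposal and export genes lay above 0. So did 3 of 6 peptidases and 3 of 4 genes of the constitutive catalytic list, PSME3 included. Limma called 0 genes of these lists other than PSME3, and 1 more, LNPEP, had an unadjusted p under 0.05. Some counts of this paragraph include genes listed at 0 in part of the libraries, named after their values were seen. Above 0, CANX, TAPBPL, RELB and TMEM129 were at 0 in empty vector libraries only, and BCAP29 in both groups. Below 0, RNF139 and ULBP3 were at 0 in overexpression libraries only, and CTSS in both groups. The signs of these genes are descriptions only. FCGRT, the neonatal Fc receptor heavy chain, was 9.87 ± 2.13 in overexpression and 6.69 ± 3.77 in empty vector libraries (adjusted p = 0.640), and TMEM127 was 9.22 ± 0.105 and 6.42 ± 1.39 (adjusted p = 0.481).

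The 7 class I genes that are not among the rows of the overexpression table analysed here all lie in the MHC region of chromosome 6, whereas B2M and ERAP1 lie on chromosomes 15 and 5. Of the 140 protein-coding genes that RefSeq places from HLA-F to TAPBP, 0 were among the rows of that table and 113 (80.7%) among those of the knockdown table. Over all 20056 protein-coding genes of RefSeq the shares were 52.7% for the overexpression table and 71.3% for the knockdown table. The whole interval, class I, class II and unrelated genes alike, was therefore without a row, and nothing can be said here about HLA or TAP transcripts under PHF19 overexpression.

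**Figure D5:**
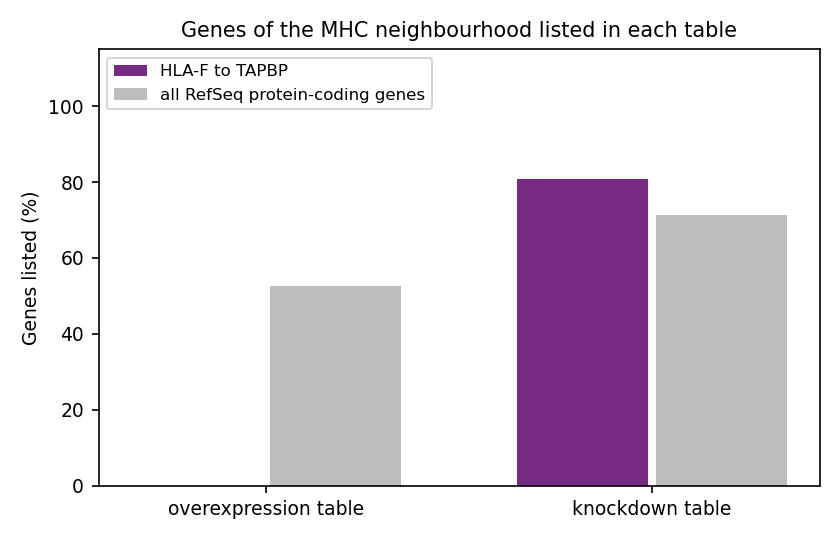
Percent of RefSeq protein-coding genes with a row in each table (y axis), for the 140 genes from HLA-F to TAPBP and for all 20056 genes. In the overexpression table the bar for the MHC interval is at 0 against 52.7% of all genes, and in the knockdown table the bars are at 80.7% and 71.3%.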

How the data were processed

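RNA-seq of 11 ARP1 libraries was used as deposited in 2 tables. The values are recorded as FPKM, normalised for length and depth by the authors before they were deposited, although the header names no unit and RPKM or TPM would look alike. The authors' p-value for every gene was deposited beside them, with no statement of their test. Reads were aligned with TopHat to hg19, per the submitters' processing notes, while the sources used here name no quantifier, annotation or gene filter. Without counts, neither depth nor counting error is known, and no detection floor was computed. The number of value columns left unused was 0.

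The tables were normalised separately, so shRNA was compared with scramble and overexpression with empty vector, within a table only. The scale was log2(value + 1). A gene entered the test if 3 knockdown or 2 overexpression libraries reached a value of 1. The test was two-sided limma-trend (limma 3.58.1, R 4.3.3) with robust variances. Its p-values were adjusted over all genes of the arm by the Benjamini-Hochberg method, and calls were made under 0.05. Levels are means ± SD. Tables and plots were made with Python 3.11.15, pandas 2.3.3, numpy 2.4.6 and matplotlib 3.10.9. The fit was tested on simulated data.

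The class I genes and all lists were chosen with earlier results of these data known. Named genes were the 9 class I genes, PHF19, every called gene of each list or otherwise the 2 with the smallest adjusted p, and the 5 genes most like the class I pattern. Other genes named are said to be chosen after their values were seen. A gene that this rule would name is not reported here.

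Knockdown libraries with equal numbers deviated from their group means together (correlations across genes of 0.341, 0.270 and 0.273, against -0.277 to 0.0936 for other pairs). The numbers were therefore taken to pair the samples, by the data alone and by no label. The replicate block is an alternative, printed with a result whose call it changes.

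Promoters are RefSeq sequences of GRCh38.p14 and gene order is that of the same annotation. No coordinate of the hg19-aligned data was used. The alternatives changed the variance model (no trend, not robust), the scaling (quantile or median-of-ratios), the filter (none, or 5), the pseudocount (0.1 or 0.5) and the libraries (1 left out at a time), added the block or, for overexpression, kept only genes with no 0.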

Additional observations from a re-analysis of the deposited data

How the results depend on the processing

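The count of 2 class I genes called higher in the knockdown arm became 1 (HLA-B) under limma without trend and robust variances, 1 under quantile normalisation, 1 under median-of-ratios scaling and 1 with no filter, and ranged from 0 to 3 when single libraries were left out. It was 4 with the replicate block, which changed no call of the 9 genes other than HLA-C and ERAP1. In the overexpression arm the count was 0 under all 13 alternatives. HLA-B, HLA-C, HLA-E, HLA-F, B2M, TAP1 and ERAP1 kept a positive fold change and TAPBP a negative one in every knockdown alternative in which they were tested. TAP2 turned to 0.074 without shRNA replicate 1, in a range of -0.18 to 0.074 over single libraries left out. ERAP1 under overexpression turned to -0.087 after quantile normalisation, -0.0081 after median-of-ratios scaling and -0.016 without overexpression replicate 1, in a range of -0.016 to 0.15 over single libraries left out. The cause was not tested.

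Over all genes, 462 higher and 139 lower knockdown calls became 219 and 50 with no filter and 894 and 401 with the block. They became 206 and 50 without shRNA replicate 2, 138 and 27 without shRNA replicate 3, 68 and 4 without scramble replicate 1, 63 and 2 without scramble replicate 2, and 146 and 21 without scramble replicate 3. In the overexpression arm, 63 higher and 31 lower calls became 17 and 19 with the filter at 5, 33 and 28 with a pseudocount of 0.1, 0 and 0 with only genes that have no 0, and 258 and 92 without empty vector replicate 5. Without overexpression replicate 1 or 2 they became 0 and 84 or 1 and 69. Leaving out a library of the overexpression pair leaves a lone sample, which is assumed to vary like the empty vector libraries. Depth is not known, so no limit of detection can be given for TAPBP or the other genes of low abundance.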

Other observations

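PSMB9, the immunoproteasome subunit encoded next to TAP1, differed more between replicate numbers than between groups, and was named after its values were seen. It was 17.1, 1.07 and 1.23 in shRNA libraries, against 13.8, 0.52 and 1.11 in scramble libraries, so replicate 1 was high in both groups, and the shRNA library was the higher within each equal-numbered pair. TAP1 in replicate 1 was 38.9 in shRNA and 36.5 in scramble libraries, within or near the range of the other replicates.

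Of the class II genes, 3 were also named after their values were seen, and each was highest in replicate 1 of both groups. Their margin was smaller than that of PSMB9. Not all class II genes showed this, since HLA-DRB1 ranged only from 44.9 to 46.2 in shRNA libraries. The 3 genes follow. HLA-DRA was 47.4, 30.1 and 30.8 in shRNA libraries, against 72.9, 23.2 and 15.2 in scramble libraries. HLA-DPA1 was 67.9, 61.3 and 55.8 in shRNA libraries, against 102, 46.2 and 38.8 in scramble libraries. HLA-DRB5 was 6.21, 2.2 and 4.2 in shRNA libraries, against 10.1, 2.27 and 1.55 in scramble libraries. In all 3 the scramble libraries spanned the whole shRNA range, and the heavy chain HLA-B did not show this (25.9, 26.1 and 24.8 in shRNA libraries, against 18.01, 15.02 and 14.35 in scramble libraries). LYZ, a myeloid gene named after its values were seen, was listed at 0.396 to 6.17 in overexpression and 0 to 0.0572 in empty vector libraries, and its part in any result was not tested.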
